A study of Mus musculus with 6 samples.

Results

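The mir-7 family of the mouse was followed through small RNA sequencing of mouse primary osteoblasts (OB), mouse primary bone marrow cells (BM) and extracellular vesicles (EVs) released by C2C12 cells, a mouse myoblast line. The family comprised the 3 precursor entries mir-7a-1, mir-7a-2 and mir-7b, taken by name from the 1006 entries of the table. The family was brought forward because mir-7a stands in the study's list of abundant miRNAs that were higher in EVs after fluid flow shear stress (FFSS). Its level and its change with FFSS are therefore given here as a description, with no test, and the same holds for mir-7b, which belongs to the same contrast.

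The 6 libraries were 1 of OB, 1 of BM, 2 of EVs from C2C12 cells without FFSS (Myo-EVs) and 2 of EVs from C2C12 cells exposed to FFSS on an orbital shaker (FFSS-Myo-EVs). The labels give a background mostly of C57BL/6J (81.25%), with 18.75% of 129/SvJ, for all 6 samples, the EVs of the cell line included, an age of 8 to 10 weeks for the mice, and a culture of 48 hr for the C2C12 cells. The culture text of the labels speaks of 1,25-dihydroxyvitamin D3 or dexamethasone and does not mention FFSS, which is given by the stress label and title. The methods describe osteoblasts grown out from the calvariae of newborn mice, which differs from the labelled age. The stress label was control for OB, BM and Myo-EVs. Total counts ranged from 2414132 to 6092460 per library. The labelled sources were checked against miRNA markers. The mesenchymal entries (mir-143, mir-199a, mir-199b and mir-214, 5 entries) summed to 519852 normalized expression units in OB and 21305.6 in BM, but also to between 309999 and 412666 in the EV libraries. Most of the EV sum was mir-143, at 274481.7 to 372549.3 against 269505.8 in OB. Each of the other mesenchymal entries was lower in every EV library than in OB, as mir-199b with 8308.7 to 13493.5 against 66862.0. The blood entries (mir-144, mir-150, mir-223 and mir-451a, 4 entries) summed to 11281.2 in BM, 126.5 in OB, 11 and 9.6 in EVs without FFSS, and 43.9 and 34.3 with it. The muscle entries (6 entries) summed to between 2052.9 and 2641.9 in the EV libraries, nearly all of it mir-206. Their sums were 118.9 in OB and 71.9 in BM. The muscle entries mir-1a-1 and mir-1a-2 went the other way and were highest in BM, at 30.6 and 31.4. In the 4 EV libraries mir-1a-1 was listed at 0 and mir-1a-2 at 0 to 6.0.

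miR-7 is an ancient miRNA, known above all from neurons, the pituitary and the endocrine cells of the pancreas. A miRNA guides a silencing complex to messenger RNAs that pair with its seed, bases 2 to 8 from its 5′ end, so miRNAs with the same seed share most of their targets. miR-7 is also known for its partners among noncoding RNAs, since the circular RNA Cdr1as binds it at many sites and miR-671 directs the cleavage of Cdr1as.

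The mature sequences show why the 3 entries have to be read together. They are given 5′ to 3′ from RefSeq (GRCm38.p6), with the seed in capitals, and all 3 entries were found there.
miR-7a-5p of mir-7a-1 and mir-7a-2: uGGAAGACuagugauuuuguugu
miR-7b-5p: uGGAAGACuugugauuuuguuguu
miR-7a-1-3p: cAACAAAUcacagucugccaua
miR-7a-2-3p: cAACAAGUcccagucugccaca
miR-7b-3p: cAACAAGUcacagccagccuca

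The 5p forms of mir-7a-1 and mir-7a-2 are the same 23 bases. That of mir-7b differs by A10U, counted from the 5′ end with the mir-7a base first, and has 1 more base at its 3′ end. All carry the seed GGAAGAC, which no other of the 1738 mature sequences in the RefSeq table holds. The 3p forms differ more, by A7G, A10C and U21C between mir-7a-1 and mir-7a-2. The table does not list the 5p and 3p forms apart.

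The hairpins are shown because they mark what a read can tell apart. The 2 mature forms of each are in capitals.
mir-7a-1: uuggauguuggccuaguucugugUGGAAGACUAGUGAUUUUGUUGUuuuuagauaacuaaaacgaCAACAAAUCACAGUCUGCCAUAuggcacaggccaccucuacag
mir-7a-2: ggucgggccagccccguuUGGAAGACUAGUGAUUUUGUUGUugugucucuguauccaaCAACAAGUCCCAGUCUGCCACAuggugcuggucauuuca
mir-7b: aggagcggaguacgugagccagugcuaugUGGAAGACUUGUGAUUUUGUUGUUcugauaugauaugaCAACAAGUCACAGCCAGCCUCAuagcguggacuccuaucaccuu

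The longest run shared by the mir-7a-1 and mir-7a-2 hairpins is 24 bases and holds the whole 5p form, so a read of miR-7a-5p does not show which gene it came from. Each of them shares at most 14 bases with mir-7b. In GRCm38, mir-7a-1 lies on chromosome 13 from 58392779 to 58392886 on the minus strand, inside Hnrnpk, the gene of an RNA-binding protein, on the same strand. It is intronic in all 12 annotated Hnrnpk transcripts that span it. The entry mir-7a-2 lies on chromosome 7 from 78888277 to 78888373 on the plus strand, outside any other annotated gene and 7481 bases from Aen, the nearest protein-coding gene. The entry mir-7b lies on chromosome 17 from 56242988 to 56243098 on the plus strand, also outside other genes and 13712 bases from Fem1a.

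All 3 entries were most abundant in BM, and the mir-7a entries were least abundant in Myo-EVs. The normalized expression value, which is the read count multiplied by a constant for each library, was 12152.6 in BM for mir-7a-1 (95% interval 12017 to 12289, 30597 counts). It was 5249.7 in OB (5145 to 5356, 9506 counts). Without FFSS the EVs had 4424.9 and 4062.5, and with FFSS they had 6523.1 and 6204.3. On this scale the order was thus BM, FFSS-Myo-EVs, OB and Myo-EVs, and the counting intervals of neighbours in this order did not overlap. With median-of-ratios scaling of the 6 libraries, FFSS-Myo-EVs were below OB (0.922 times), which these intervals do not cover. OB and BM have 1 library each, so their distance from the EVs cannot be set against replicates, and the intervals, which are exact (Clopper-Pearson), cover counting error only.

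The entry mir-7a-2 followed mir-7a-1 closely, at 11778.8 in BM, 5130.4 in OB, 4062.5 and 3776.3 in EVs without FFSS, and 6156.5 and 5780.1 in EVs with FFSS. The libraries stood in the same order for both mir-7a entries. Within each library, mir-7a-1 ranked between 30 (BM) and 65 (the second Myo-EV library) among the 1006 entries, and its share of all counts was 0.502% in BM, 0.183% in OB, 0.154% and 0.141% without FFSS, and 0.216% and 0.211% with FFSS.

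The entry mir-7b was lower by about 2 orders of magnitude. Its value was 102.9 in BM (95% interval 90.7 to 116.2, 259 counts), 45.8 in OB (36.5 to 56.8, 83 counts), 54.2 and 33.5 in EVs without FFSS (54 and 28 counts), and 57.8 and 50.9 with FFSS (58 and 46 counts). Only BM stood apart. The intervals of OB and of the 4 EV libraries overlapped one another, and their order could not be determined at this depth.

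**Figure D1:**
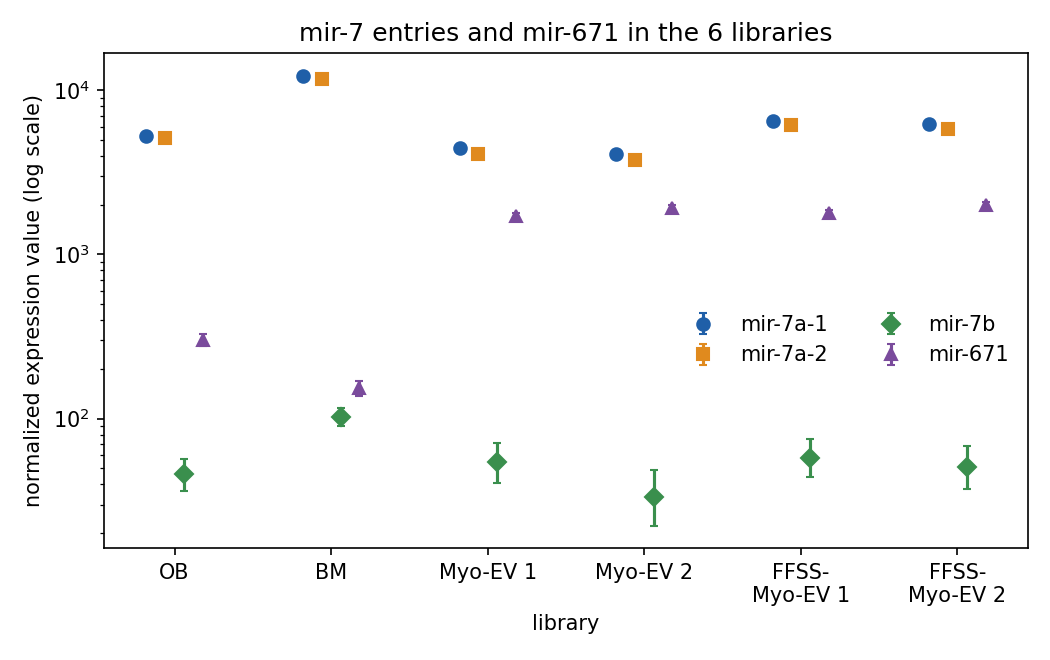
Normalized expression values (log axis) of mir-7a-1, mir-7a-2, mir-7b and mir-671 in each of the 6 libraries, with bars for the exact 95% counting interval. BM is the highest library for each mir-7 entry and the lowest for mir-671, and mir-7b lies at 33.5 to 57.8 in OB and the EVs against 102.9 in BM.

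All 3 entries were higher in BM than in OB, by 2.31 times for mir-7a-1 (exact 95% counting interval of the ratio 2.26 to 2.37), 2.30 times for mir-7a-2 (2.24 to 2.35) and 2.25 times for mir-7b (1.75 to 2.91). More than 2 times the OB value was also found in BM for 29.6% of the 443 entries with a mean of at least 10 over the 6 libraries. These values are on the authors' scaling, and the intervals do not cover the choice of scaling. With median-of-ratios scaling, Myo-EVs were at 0.332 times BM and 0.659 times OB for mir-7a-1, which puts BM just under 2 times OB. The same held for mir-7a-2 (0.317 and 0.623) and mir-7b (0.406 and 0.782). BM was the highest of the 6 libraries for all 3 entries, as it was for 30.7% of the 443. As the 2 mir-7a entries share their 5p form, the 3 entries cannot be taken as 3 separate observations. BM is a mixed cell population, and more cells that contain miR-7 or more miR-7 per cell cannot be told apart in it.

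Whether EVs carry more of a miRNA than bone cells was a question of the study. Against BM, the mean of mir-7a-1 was 0.349 times in Myo-EVs and 0.524 times in FFSS-Myo-EVs, and that of mir-7b was 0.426 and 0.528 times. All 4 EV libraries were below BM for each of the 3 entries, which held for 41.1% of the 443 entries. Against OB, mir-7a-1 was 0.808 times in Myo-EVs and 1.21 times in FFSS-Myo-EVs, so that the value in OB lay between those of the 2 kinds of EVs. This last position depended on the scaling. With median-of-ratios scaling of the 6 libraries, FFSS-Myo-EVs were at 0.922 times OB for mir-7a-1 and 0.885 times for mir-7a-2, below OB in place of above it.

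With FFSS, the EV values of both mir-7a entries were higher, and those of mir-7b showed no separation. The mean of mir-7a-1 was 4243.7 ± 256.3 (SD, n = 2) in Myo-EVs and 6363.7 ± 225.4 (SD, n = 2) in FFSS-Myo-EVs, a ratio of 1.5. For mir-7a-2 it was 3919.4 ± 202.4 (SD, n = 2) and 5968.3 ± 266.2 (SD, n = 2), a ratio of 1.52. The 2 libraries with FFSS exceeded the 2 without it for both entries, as they did for 36.7% of the 354 entries with a mean of at least 10 over the 4 EV libraries. For mir-7b the means were 43.9 ± 14.6 (SD, n = 2) and 54.4 ± 4.9 (SD, n = 2), and the lower FFSS-Myo-EV library (50.9) was below the higher Myo-EV library (54.2).

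On the TMM scale, which balances the libraries over all entries, the log2 fold change was 0.46 (SE 0.13) for mir-7a-1, 0.48 (SE 0.13) for mir-7a-2 and 0.17 (SE 0.34) for mir-7b, against a median of -0.025 over the 354 entries. The mir-7a entries thus differed by 1.37 and 1.40 times on this scale, less than on the authors' scaling, which shifted the median entry by 0.12 (log2) toward higher values with FFSS. Their groups were separate on both scales, and on the TMM scale 26.0% of the 354 entries were. In the fit over all entries, 30.5% of the 354 were called (adjusted p under 0.05, quasi-likelihood test of edgeR), 12.1% as higher with FFSS and 18.4% as lower. With the authors' scaling in the same test, the calls were split the other way, with 54 higher and 39 lower against 43 and 65. Because the mir-7a entries were chosen on this contrast, no p is given for them and nothing is read from these shares. Some marker entries also differed with FFSS. Of the blood entries only mir-451a, known from red blood cells, was tested. Its values were 3.0 and 4.8 without FFSS and 25.9 and 17.7 with it (log2 fold change 2.36, SE 0.52). It reached the required mean of 10 only through the libraries with FFSS. The filter thus favoured this direction, and no p is given for it. In the muscle list mir-133b was lower with FFSS (log2 fold change -1.75, edgeR adjusted p = 0.000139), and mir-206 was not called (0.15, adjusted p = 0.420). The values of mir-133a-1 (19.1 and 19.2 without FFSS, 10.0 and 4.4 with it) and mir-133a-2 (17.1 and 20.4, 6.0 and 4.4) were also lower. Their log2 fold changes were -1.49 and -1.92. Both reached the mean of 10 through the Myo-EV libraries, so no p is given for them. In the mesenchymal list mir-199b was higher (0.46, adjusted p = 0.00845) and the other 4 entries were not called. The part of these differences in the mir-7a values was not tested.

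The copies were compared within each library, where no scaling between libraries enters. The count of mir-7a-1 exceeded that of mir-7a-2 in all 6 libraries. The excess was 216 counts in OB and 941 in BM, 361 and 239 in EVs without FFSS, and 368 and 383 with FFSS. As a share of the mir-7a-1 count this was 2.27% in OB, 3.08% in BM, 8.19% and 7.05% without FFSS, and 5.62% and 6.84% with FFSS. All 4 EV libraries were thus above both cell libraries. Those without FFSS were above those with it, at the nearest by 7.05% against 6.84%. No counting interval was computed for the excess, so this order of the EV groups is not established.

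The difference between the EV groups in this ratio was small. The log2 of mir-7a-1 over mir-7a-2 was 0.114 ± 0.013 (SD, n = 2) in Myo-EVs and 0.093 ± 0.013 (SD, n = 2) in FFSS-Myo-EVs, a difference of -0.022. No p is given for the copy ratios, since both draw on the entries chosen on this contrast. Whether the reads behind the excess belong to the 3p form, to bases flanking the 5p form or to another part of the hairpin was not tested.

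How reads that match several entries were counted is not stated, so the entries were set beside others of the same table. In RefSeq, 6 pairs of entries have identical hairpins. Of these, the mir-465b and mir-465c pairs reached at least 100 counts in a library, and their copies differed by at most 14 counts in any library, as with 1757 and 1766 counts for mir-465c-1 and mir-465c-2 in the first Myo-EV library. If each read went at random to 1 copy, this difference would have an SD of 38.8 to 59.4 counts in the EV libraries. The counting rule itself was not tested. The other 4 pairs had at most 26 counts and differed by up to 5. Among names with several entries and at least 100 counts, 22 to 25 names per library, the lowest entry had a median of 90.1% to 93.4% of the count of the highest. For mir-7a this share was 97.7% in OB, 96.9% in BM and 91.8% to 94.4% in the EVs. In the EV libraries, 9 to 12 of these names had more equal copies than mir-7a.

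The ratio of mir-7b to mir-7a varied less between libraries than the level of either. The count of mir-7b was 0.873% of that of mir-7a-1 in OB (95% interval 0.695% to 1.08%), 0.846% in BM (0.746% to 0.957%), 1.23% and 0.825% in EVs without FFSS (0.919% to 1.60% and 0.548% to 1.20%), and 0.886% and 0.821% with FFSS (0.672% to 1.15% and 0.600% to 1.10%). All 6 intervals overlapped, although mir-7a-1 itself differed by up to 2.99 times between libraries on the normalized scale. The log2 of mir-7b over mir-7a-2 was -6.52 ± 0.42 (SD, n = 2) in Myo-EVs and -6.78 ± 0.06 (SD, n = 2) in FFSS-Myo-EVs, a difference of -0.26 that was smaller than the SD of the Myo-EV libraries.

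**Figure D2:**
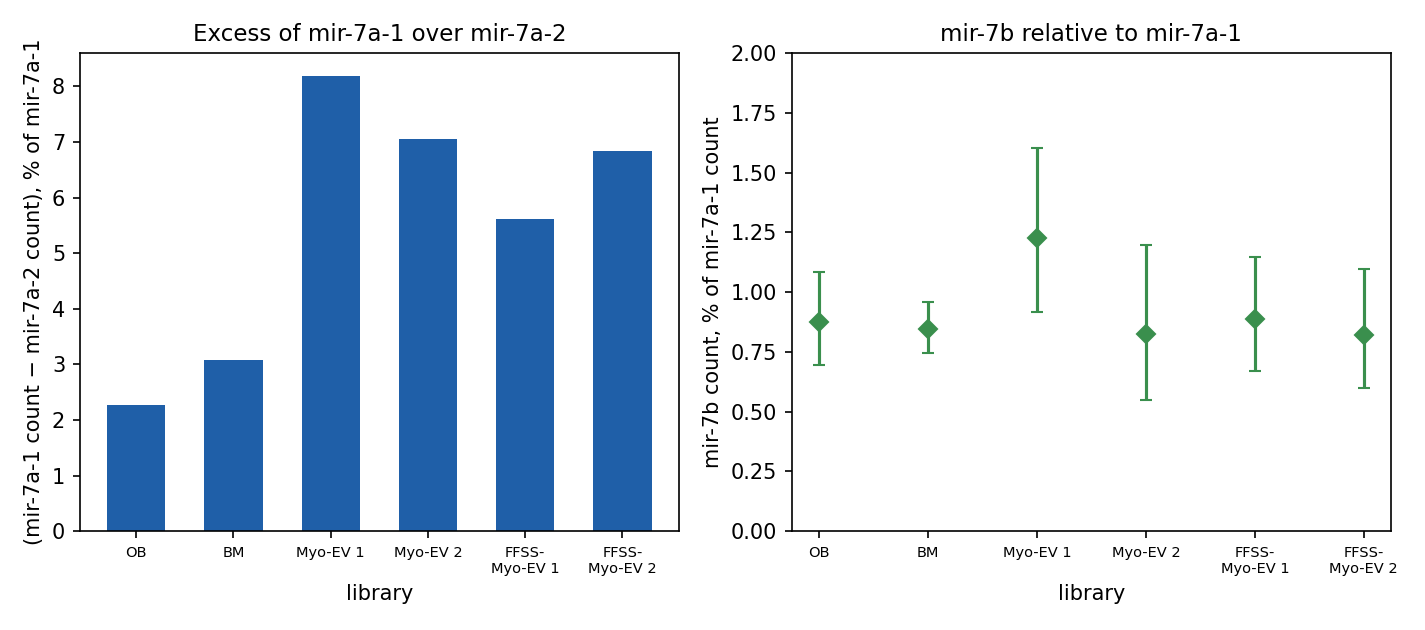
Left, the excess of the mir-7a-1 count over the mir-7a-2 count as a percent of the mir-7a-1 count in each library, and right, the mir-7b count as a percent of the mir-7a-1 count with exact 95% counting intervals. The excess is 2.27% and 3.08% in the cells against 5.62% to 8.19% in the EVs, while the mir-7b values lie between 0.821% and 1.23% with 6 intervals that share the range from 0.919% to 0.957%.

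Since the 5p forms of mir-7a and mir-7b differ by a single base, the ratio was set beside other pairs of names with a mature form that differs by 1 base on either arm. Pairs whose higher entry had at least 3000 counts numbered 12 to 14 per library. The lower entry of these pairs had a median of 7.82% to 27.9% of the higher one. The mir-7 pair was near the bottom, with 1 to 3 pairs below it in each library. The lowest pair was mir-29a with mir-29c in OB at 0.476%, mir-10a with mir-10b in BM and both Myo-EV libraries at 0.350% to 0.561%, and mir-17 with mir-106a in both FFSS-Myo-EV libraries at 0.460% and 0.503%. The number of mismatches that the matching allowed is not stated, and the part of the mir-7b counts that comes from reads of miR-7a was not tested.

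**Figure D3:**
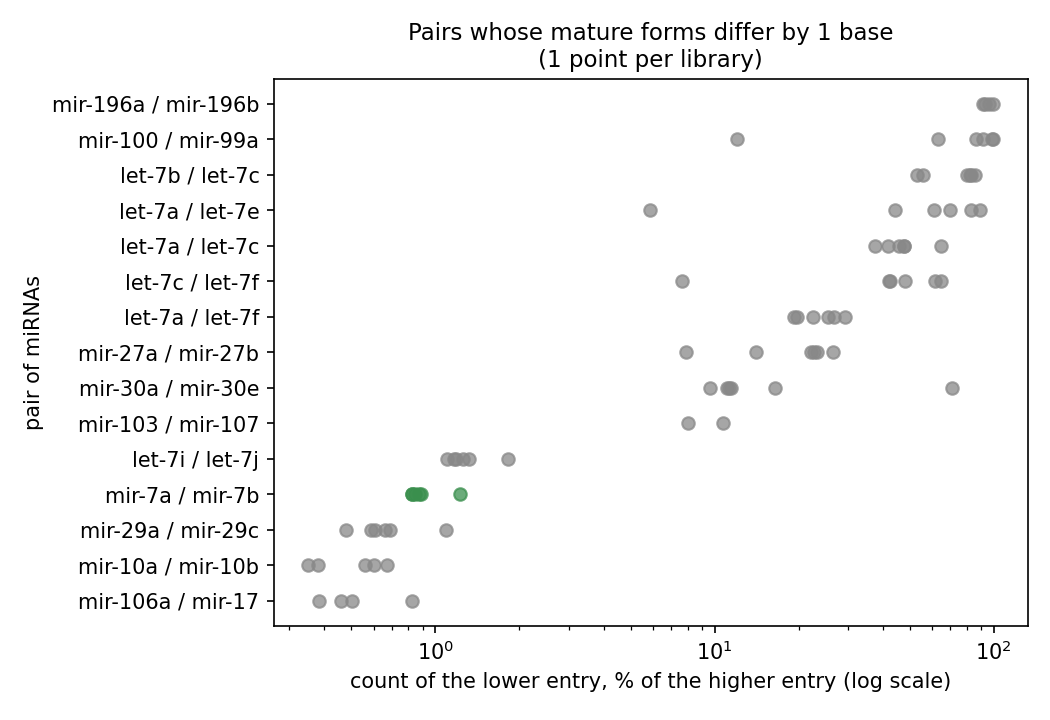
For pairs of miRNAs with a mature form that differs by 1 base, the count of the lower entry as a percent of the higher one (log axis), with 1 point per library in which the higher entry had at least 3000 counts. The mir-7 pair, in green, lies at 0.821% to 1.23%, beside mir-29a with mir-29c, mir-10a with mir-10b and mir-17 with mir-106a.

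Among the other miRNAs of the circuit, mir-671 had a different distribution. It lies on chromosome 5 from 24592114 to 24592211 on the plus strand, within an exon of both spanning transcripts of Chpf2, a gene of chondroitin synthesis, so that fragments of that transcript could be counted with it. The protein-coding gene Smarcd3, on the minus strand, also overlaps this position. The mature forms of mir-671, shown for contrast with the mir-7 seed, are as follows.
miR-671-5p: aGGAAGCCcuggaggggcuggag
miR-671-3p: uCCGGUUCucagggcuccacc

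The value of mir-671 was 153.3 in BM, 302.6 in OB, 1706.5 and 1907.9 without FFSS and 1792.2 and 2004.6 with it. The EV means without and with FFSS were thus 11.8 and 12.4 times BM and 5.97 and 6.27 times OB. BM was the lowest library for mir-671 and the highest for the mir-7 entries, and the EV groups overlapped. Its log2 fold change with FFSS was -0.053 (SE 0.13, edgeR adjusted p = 0.807).

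Other miRNAs known from neurons and endocrine cells were below mir-7a-1 in every library, with mir-671 the nearest in the EVs. The list held mir-671 and 14 further names, and 13 of these 15 names were found, as 22 entries. Between 8 and 13 of the 22 were below 10 in each library. The count of mir-375, known from pancreatic islets, was 0 to 2, and that of each of the 3 mir-124 entries, known from neurons, was 0 or 1. The highest members besides mir-671 in BM and in the EVs were mir-128-1 and mir-128-2, which are known from the brain, while in OB mir-218-1 and mir-218-2 were higher than these (437.9 and 491.5). The value of mir-128-1 was 1781.4 in BM, 339.1 in OB and 289.1 to 301.8 in the EVs, and that of mir-128-2 was 1010.8 in BM, 206.5 in OB and 153.9 to 217.8 in the EVs. BM was the highest library for these 2 of the 22 entries, as it was for 30.7% of the 443 entries with a mean of at least 10. Since many of the 22 were below 10, these shares are not on equal terms, and nothing is read from them. Of the 11 entries tested in the EVs, 0 were called higher and 0 lower by edgeR (adjusted p under 0.05), which called 30.5% of all 354. DESeq2 and limma also called 0 of the 11, against 82 and 94 of the 354, and 0 had an unadjusted p under 0.05 in edgeR. The 11 are not separate observations, since mir-9, mir-128 and mir-218 stand there with several entries each. Some were also low, as the mir-9 entries with 7 to 15 counts per EV library (SE 0.44 to 0.48). A change in such entries could be missed, so the absence of calls does not show that the list was stable. The median log2 fold change was -0.19 against -0.025 over all 354 entries.

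The entries outside the family with profiles most like those of mir-7a-2 and mir-7b were sought in the 244 entries whose mean was at least 100, by the root mean square difference of log2 values over the 6 libraries after each entry was centred on its own mean. Nearest to mir-7a-2 were mir-194-2 (difference 0.22, r = 0.94), mir-1843a (0.24, r = 0.89), mir-30d (0.24, r = 0.89) and mir-30e (0.29, r = 0.91). Nearest to mir-7b were mir-30e (0.25, r = 0.89), mir-21a (0.25, r = 0.88), mir-30d (0.28, r = 0.84) and mir-194-2 (0.29, r = 0.79). The 6 libraries are of 4 conditions and share their scaling, so these values describe likeness only. The value of mir-194-2 was 259.4 in BM, 168.4 in OB, 116.4 and 122.2 without FFSS and 144.4 and 167.2 with it. That of mir-30d was 26641.0 in BM, 9186.1 in OB and 9881.7 to 11432.9 in the EVs.

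**Figure D4:**
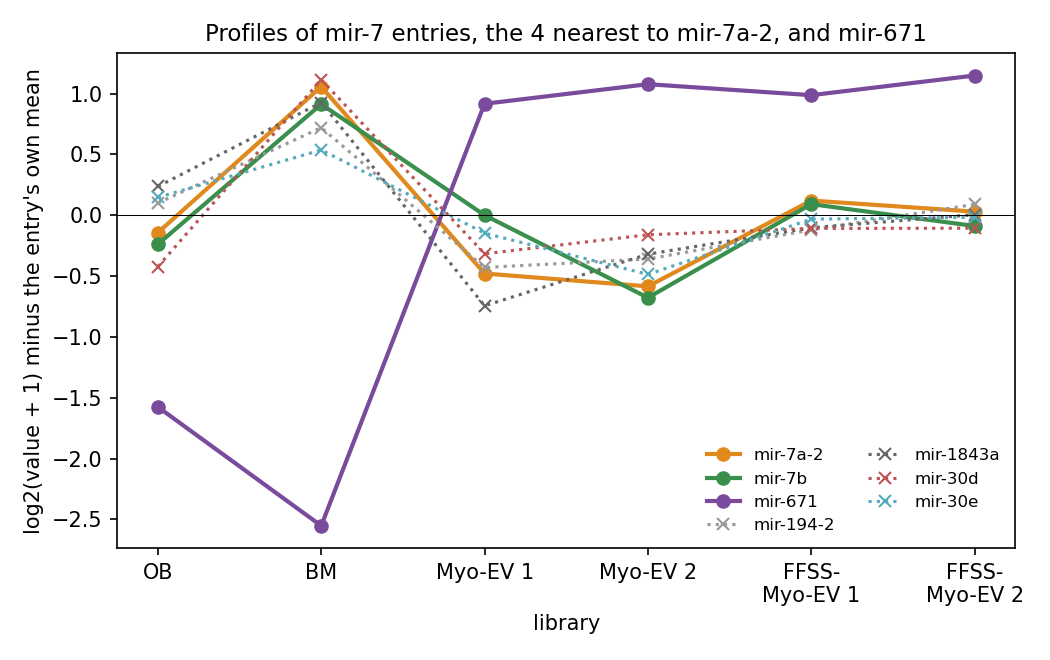
The log2 values, with a pseudocount of 1, of mir-7a-2, mir-7b, mir-671 and the 4 entries nearest to mir-7a-2 in the 6 libraries, each centred on its own mean. The mir-7 entries and their 4 neighbours peak in BM, whereas mir-671 is lowest there.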

How the data were processed

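Small RNA was sequenced from 6 libraries, each made from 90 ng of total RNA. Identical reads were pooled by the authors and assigned to miRBase miRNAs with CLC Genomics Workbench, and the deposited table holds 1 count per precursor entry and library. They also deposited a normalized expression value, a signal that amounts to the count times 1 constant per library (0.397 to 1.20). The submitters' processing notes name mm10, and the miRBase release, the number of mismatches permitted and the rule for reads with several matches are not given in the sources used here. Counts without molecular identifiers do not stand for independent molecules.

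Members were taken by name. The members, the lists and the tests were chosen with earlier results of these data known. The 1-base pairs and the identical hairpins were added after the values were seen, and the entries named from them, like mir-124, mir-218 and mir-375, fall outside the naming rule. FFSS-Myo-EVs and Myo-EVs were compared by count in R 4.3.3 with edgeR 4.0.16 (4 EV libraries, TMM, quasi-likelihood test, Benjamini-Hochberg adjustment, entries with a mean normalized value of at least 10), and the script was tested on simulated data. Limma 3.58.1, DESeq2 1.42.0, other scalings and filters, the replicate block and the omission of each EV library were alternatives. No source says whether the EV libraries came from separate cultures, so errors measure no spread beyond that between these libraries. With 2 residual degrees of freedom, the SE and p of edgeR also draw on spread pooled over the tested entries, not on each entry's alone. Ratios and exact intervals were computed with scipy 1.17.1 under Python 3.11.15. The permutation test planned for the copy ratios is not reported, because the contrast chose the members. Named besides the members were mir-671, the 4 entries nearest to mir-7a-2 and to mir-7b, and the 2 highest members of the neuronal and endocrine list in Myo-EVs and in BM, with marker entries of mesenchymal, blood and muscle cells. The fixed marker lists also named mir-145 (mesenchymal) and mir-142 (blood), which contributed no entry to the sums. The entries mir-145a and mir-145b were thus left out. Positions came from GENCODE M21 (GRCm38) and sequences from RefSeq, in which 994 of the 1006 entries were found.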

Additional observations from a re-analysis of the deposited data

How the results depend on the processing

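In edgeR, the log2 fold change of mir-7a-1 with FFSS was 0.54 with library totals and 0.58 with the authors' scaling, and 0.59 with limma. For mir-7a-2 it was 0.56, 0.61 and 0.61. These exceed the TMM values of 0.46 and 0.48, with the same direction, by less than the SE of the TMM fit (0.13). With 1 EV library omitted at a time, it ranged from 0.36 to 0.58 for mir-7a-1, from 0.37 to 0.61 for mir-7a-2 and from -0.094 to 0.57 for mir-7b. The direction of mir-7b thus rested on the second Myo-EV library, without which it was -0.094. The entries called over the whole table numbered 37 to 120 with a library left out, against 108. They fell to 40 and 37 without the first and the second FFSS-Myo-EV library, and were 82 to 110 with the other alternatives.

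With CPM, the log2 ratio of Myo-EVs to BM was -1.77 for mir-7a-1 and -1.84 for mir-7a-2, that of FFSS-Myo-EVs to BM was -1.23, -1.28 and -1.22 for mir-7a-1, mir-7a-2 and mir-7b, and that of FFSS-Myo-EVs to OB was 0.22 for mir-7a-1. With median-of-ratios scaling, the log2 ratio of FFSS-Myo-EVs to BM was -1.11, -1.15 and -1.09 for the 3 entries, that of FFSS-Myo-EVs to OB was -0.12, -0.18 and -0.15, a change of direction, and that of Myo-EVs to OB was -0.60 and -0.68 for the mir-7a entries. The cause was not tested.

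With a library left out, the log2 ratio of mir-7b in Myo-EVs ranged from -1.62 to -0.92 against BM and from -0.45 to 0.24 against OB, and in FFSS-Myo-EVs from -1.02 to -0.83 and from 0.15 to 0.34. For mir-7a-1 the ranges were -1.58 to -1.46, -0.37 to -0.25, -0.97 to -0.90 and 0.24 to 0.31 in the same order, and for mir-7a-2 they were -1.64 to -1.54, -0.44 to -0.34, -1.03 to -0.94 and 0.17 to 0.26. The FFSS difference in log2 mir-7b over mir-7a-2 ranged from -0.55 to 0.034, the latter without the first Myo-EV library, and that in mir-7a-1 over mir-7a-2 from -0.031 to -0.012.

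With the replicate number as a block, the log2 fold changes were 0.46, 0.48 and 0.19, with 110 calls over all entries, and the copy ratio differences -0.26 and -0.022. The correlation of the replicate differences between the EV groups was 0.21, and no source says that the numbers pair the libraries. Of the 4 entries nearest to mir-7a-2, 1 was shared when ranked by Pearson r, and of those nearest to mir-7b, 2. With a mean of at least 1000, 2 and 3 were shared. Both numbers were fixed by that filter, since mir-194-2 and mir-1843a lie below 1000 and the other named neighbours above it. With a mean of at least 100, mir-7b was not tested. Depth limits mir-7b, with 28 to 58 counts per EV library.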
